A study of Mus musculus with 2 samples.

Results

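Described here are 10 genes of the HIF pathway, a list of symbols that uses no measured value as its rule: the alpha subunits Hif1a and Epas1, the hydroxylases Hif1an, Egln1 and Egln3, the ubiquitin ligase subunit Vhl, and the hypoxia targets Vegfa, Bnip3, Adm and Ndrg1. They are 10 of 55536 gene entries in the deposited tables. Polyadenylated RNA was sequenced from C57BL/6J mouse macrophages grown from bone marrow, a culture of phagocytes derived from marrow precursors. The cells received 100 ng/mL Lipid A for 12 h, were washed and kept without it for another 12 h, and then received 100 ng/mL Lipid A for 30 min. Lipid A is the lipid anchor of lipopolysaccharide and is sensed through Tlr4. The treatment field of the same samples reads lipoprotein A, and the labels do not settle which is meant. Both libraries belong to this 1 group, as biological replicates 2 and 1, from separate biosamples under 1 donor record, so the spread between them may be partly technical. Sex and age were not collected and the labels give no oxygen tension. No untreated, singly treated or hypoxic library was analysed here. Each value is therefore a level in restimulated cells, and each ratio compares the replicates.

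HIF is a transcription factor made of an oxygen-labile alpha subunit and the stable partner Arnt. In normal oxygen, prolyl hydroxylases of the Egln family mark the alpha subunit for the ligase that Vhl serves, and Hif1an hydroxylates it so that coactivators cannot bind. In low oxygen the subunit persists and switches on genes for glycolysis, vessel growth and survival. Macrophages are known to raise Hif1a transcription through NF-kB after Tlr4 signalling even in normal oxygen, and Vegfa and Adm are among the targets such cells secrete. RNA levels do not report the protein, whose stability is the main point of control.

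The coding sequence of Hif1a and of Vegfa was split between annotated transcripts, and 1 stretch of coding sequence in which they differ is shown because the transcript results rest in part on it. In both genes the transcripts also differ at their 5′ end, which is not printed. Hif1a-202 lacks a stretch of 42 bases at chr12:73941688-73941729 (mm10, plus strand) that Hif1a-201 holds, in capitals. Vegfa-202 holds an exon of 132 bases at chr17:46020991-46021122 (mm10, minus strand), in capitals, that Vegfa-201 lacks. That exon encodes the heparin-binding region of the growth factor, and forms without it are known to diffuse more freely. The flanking lower case is coding sequence that both transcripts of a gene share (GENCODE M21, 5′ to 3′).
Hif1a-202: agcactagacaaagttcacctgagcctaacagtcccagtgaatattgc
Hif1a-201: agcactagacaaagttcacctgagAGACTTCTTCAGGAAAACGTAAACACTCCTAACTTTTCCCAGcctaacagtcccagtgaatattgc
Vegfa-202: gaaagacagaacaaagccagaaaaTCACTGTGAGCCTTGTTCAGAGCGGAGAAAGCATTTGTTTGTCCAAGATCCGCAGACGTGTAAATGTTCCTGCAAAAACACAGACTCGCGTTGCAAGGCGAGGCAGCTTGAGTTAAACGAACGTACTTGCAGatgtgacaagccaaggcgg
Vegfa-201: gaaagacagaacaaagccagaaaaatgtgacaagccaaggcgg

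HIF binds DNA at a core written ACGTG or GCGTG, and the bases upstream of 4 members are printed because they differ widely in how many such cores they hold. Each sequence is the 250 bases before the RefSeq start (GRCm38.p6, 5′ to 3′ on the gene's strand), with matches on either strand in capitals. Bnip3 (chr7:138909507-138909756, minus strand) held 5 matches, Hif1a (chr12:73907617-73907866, plus strand) 3, Adm (chr7:110627407-110627656, plus strand) 2 and Vegfa (chr17:46032378-46032627, minus strand) 0. A palindromic CACGTG counts on both strands, so the 5 Bnip3 matches lie in 4 runs of capitals and the 3 Hif1a matches in 2.
Bnip3: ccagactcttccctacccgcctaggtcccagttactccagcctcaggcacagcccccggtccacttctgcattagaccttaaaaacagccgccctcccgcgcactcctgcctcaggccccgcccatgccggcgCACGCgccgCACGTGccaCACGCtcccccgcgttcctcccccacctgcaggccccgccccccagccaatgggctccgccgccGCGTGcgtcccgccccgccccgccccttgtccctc
Hif1a: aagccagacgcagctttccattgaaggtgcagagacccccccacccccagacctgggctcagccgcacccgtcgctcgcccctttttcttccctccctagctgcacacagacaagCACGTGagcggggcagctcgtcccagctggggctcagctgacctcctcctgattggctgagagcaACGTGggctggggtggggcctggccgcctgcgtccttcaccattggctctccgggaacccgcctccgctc
Adm: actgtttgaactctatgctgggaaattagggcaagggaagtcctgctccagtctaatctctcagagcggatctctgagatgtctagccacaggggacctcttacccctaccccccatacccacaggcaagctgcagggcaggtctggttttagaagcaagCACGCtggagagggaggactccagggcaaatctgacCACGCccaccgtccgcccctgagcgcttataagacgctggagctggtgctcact
Vegfa: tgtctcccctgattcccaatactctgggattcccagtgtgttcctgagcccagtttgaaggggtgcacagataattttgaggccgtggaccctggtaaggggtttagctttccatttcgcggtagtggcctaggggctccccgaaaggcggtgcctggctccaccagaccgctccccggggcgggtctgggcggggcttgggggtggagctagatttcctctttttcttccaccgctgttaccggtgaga

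RefSeq promoter windows, 250 bases before to 50 after a start, were matched for 8 of the 10 members, and 6 of these 8 held at least 1 core. Any window of a gene sufficed, and by that count 46.7% of 27025 genes in the table held a core. Counted per window, it was 43.8% of 32851 windows and 69.2% of 9690 windows with at least 60% G and C. Egln1 held 2 matches in a window of 86.0% G and C, and Egln3 held 1. Hif1an and Vhl held none. A further Vegfa window at chr17:46025114-46025413, inside the gene, held 2, which is why Vegfa counts among the 6. Both of these matches lie in a coding exon that Vegfa-202 and Vegfa-201 share. ACGTG was found for 5 members and 21.8% of genes, and GCGTG for 4 members and 35.1% of genes. A match describes letters in the window and nothing about binding, which was not measured.

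Library size set the precision. Gene counts summed to 30780685 (replicate 2) and 41938439 (replicate 1). A gene at 0 counts could hold up to 3, which is 0.0975 CPM in replicate 2 and 0.0715 CPM in replicate 1 (counting error only, since reads are not independent molecules). Ribosomal RNA from CT010467.1 made up 4.25% of the replicate 2 counts and 1.37% of the replicate 1 counts. All 8 listed macrophage markers were detected, led by Lyz2 at 11648.51 TPM in replicate 2 and 8427.15 TPM in replicate 1. TPM, a relative abundance, divides by transcript length and is the scale for levels throughout, and a gene is called detected at 1 TPM or more in both libraries. Markers of other cells were uneven. All 6 stromal markers were detected and higher in replicate 2, summing to 646.2 and 569.2 TPM in replicates 2 and 1, with Col1a1 highest at 243.1 and 214.3 TPM. Neutrophil markers, 2 of 7 detected, summed to 9.88 TPM in replicate 2 and 75.2 TPM in replicate 1, and S100a9 was highest at 5.28 and 40.0 TPM. No erythroid marker of 5 was detected, with sums of 0.63 and 2.34 TPM, and Klf1 and Hbb-bs had 0 counts in both libraries. Their part in the differences below was not tested, and in these bulk libraries fewer cells of a type and less RNA per cell cannot be told apart.

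Of the 10 members, 8 were detected, against 48.7% of all 22028 protein-coding genes. The median over all 10 members, detected or not, stood at 9.95 TPM in replicate 2 and 9.79 TPM in replicate 1. The median detected protein-coding gene stood at 16.4 and 17.5 TPM, a set that leaves undetected genes out. By mean TPM, the median over all 22028 protein-coding genes was 0.97 TPM, beside 9.87 TPM for the 10 members. Together the members reached 145 TPM in replicate 2 and 115 TPM in replicate 1. Vegfa supplied 32.2% of that sum in replicate 2 and 19.1% in replicate 1, and Hif1a 25.2% and 26.9%. By mean TPM the order was Vegfa, Hif1a, Bnip3, Vhl, Hif1an, Egln1, Ndrg1, Adm, Epas1 and Egln3. The ranges of Vegfa and Hif1a overlapped, as did those of Bnip3 and Vhl, of Hif1an and Egln1, and of Egln1 and Ndrg1. All other neighbours kept apart in both libraries.

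**Figure D1:**
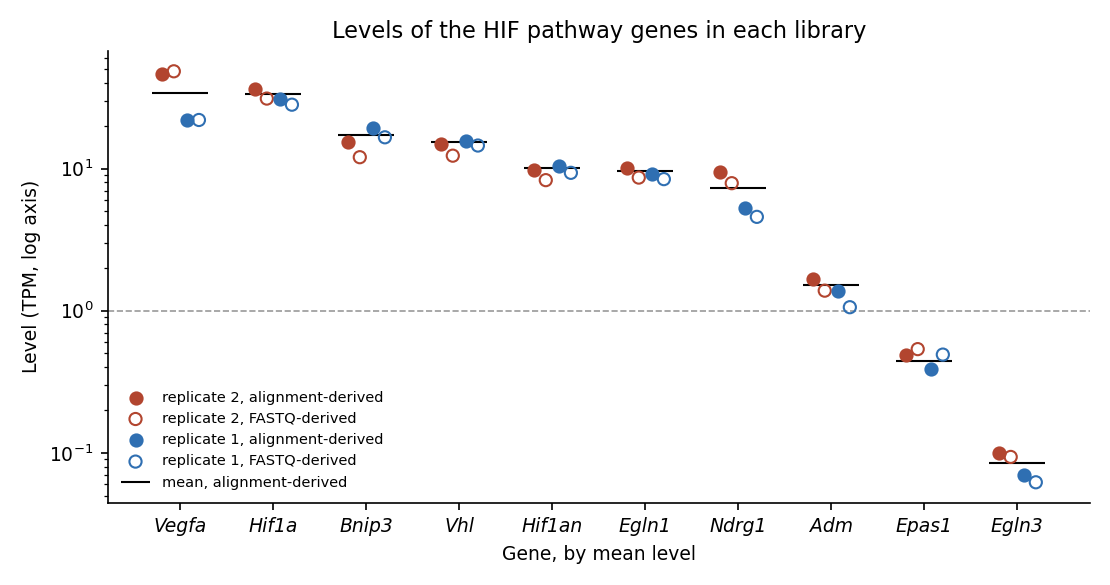
TPM of the 10 genes on a log axis, replicate 2 to the left of replicate 1, with filled points for the alignment-derived gene table, open points for the FASTQ-derived table and a bar at the alignment-derived mean. Epas1 and Egln3 lie under the dashed line at 1 TPM in both libraries, and the libraries stand furthest apart for Vegfa (46.6 and 21.9 TPM) and Ndrg1 (9.38 and 5.26 TPM).

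The alpha subunits differed by well over an order of magnitude. Hif1a (ENSMUSG00000021109.13, chromosome 12, 73901375 to 73947530, mm10), the subunit used across most tissues, had 36.5 TPM from 3307 counts in replicate 2 and 30.8 TPM from 3713 counts in replicate 1. Its mean of 33.7 ± 4.01 TPM (SD, n = 2) lay above 67.8% of detected protein-coding genes. Epas1 (ENSMUSG00000024140.10, chromosome 17, 86753700 to 86833410), which encodes HIF-2 alpha and is known from endothelium and from alternatively activated macrophages, had 0.49 TPM from 55 counts and 0.39 TPM from 58 counts. Hif1a thus exceeded Epas1 74.5-fold in replicate 2 and 79.0-fold in replicate 1, and 57.9-fold and 57.3-fold in the FASTQ-derived table. Interval bounds that the authors deposited for Epas1 were 0.396 to 2.82 TPM in replicate 2 and 0.319 to 1.93 TPM in replicate 1. Both hold 1 TPM, so these folds and the call of Epas1 as not detected rest on point estimates. Arnt, the shared partner, had 24.7 TPM in replicate 2 and 28.1 TPM in replicate 1, so that Hif1a over Arnt was 1.48 and 1.10. Arnt2, a partner known mainly from neurons, had 0.57 and 0.61 TPM. Hif3a, another alpha subunit, had 0.11 and 0.14 TPM, from 8 and 24 counts. Of the 5 HIF subunits, Hif1a and Arnt were the 2 detected.

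Hif1an, Egln1 and Vhl sat in the middle of the members' range with similar levels in both libraries, and Egln3 was the lowest member. Hif1an (ENSMUSG00000036450.4, chromosome 19, 44562850 to 44576274), the asparaginyl hydroxylase, had 9.77 TPM from 1232 counts in replicate 2 and 10.4 TPM from 1722 counts in replicate 1, a mean of 10.1 ± 0.431 TPM (SD, n = 2). Egln1 (ENSMUSG00000031987.6, chromosome 8, 124908587 to 124949324), the main prolyl hydroxylase in normal oxygen, had 10.1 TPM from 716 counts and 9.20 TPM from 856 counts, a mean of 9.67 ± 0.665 TPM (SD, n = 2). Vhl (ENSMUSG00000033933.13, chromosome 6, 113623959 to 113631633), which recognises the hydroxylated alpha subunit, had 14.9 TPM from 798 counts and 15.7 TPM from 1111 counts, a mean of 15.3 ± 0.573 TPM (SD, n = 2). For these 3 genes the libraries lay within 1 TPM of each other, with Egln1 higher and Hif1an and Vhl lower in replicate 2. Egln3 (ENSMUSG00000035105.5, chromosome 12, 54178981 to 54203860), the hydroxylase most strongly induced by HIF in many cells, had 0.10 and 0.07 TPM from 5 counts in each library (exact Poisson interval 1.62 to 11.7 counts). Egln1 was 101-fold above Egln3 in replicate 2 and 131-fold in replicate 1, with few Egln3 counts behind either ratio. Egln2, the remaining prolyl hydroxylase, was higher than both at 29.6 and 35.8 TPM, or 2.92 and 3.89 times Egln1.

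The other subunits of the Vhl ligase stood above Vhl, whereas the listed Siah and Usp regulators stood below it. Among 13 listed genes of oxygen sensing and HIF degradation, 12 were detected and Egln3 was the exception. Elob and Eloc, the elongins that bind Vhl, had 229 and 101 TPM in replicate 2, and 263 and 128 TPM in replicate 1. The ring protein Rbx1 had 75.3 TPM in replicate 2 and 87.3 TPM in replicate 1, and the scaffold Cul2 had 20.2 and 21.5 TPM. These 4 subunits all stood above Vhl in both libraries. The ligases Siah1a and Siah2, which act on prolyl hydroxylases, had 7.16 and 7.54 TPM in replicate 2, and 6.41 and 5.64 TPM in replicate 1. The deubiquitinases Usp33 and Usp20, which bind Vhl, had 12.6 and 2.75 TPM in replicate 2, and 14.4 and 3.71 TPM in replicate 1. Of the 12 genes with at least 20 counts in each library, 4 were higher and 8 lower in replicate 2. No gene was 2-fold apart, and the median log2 ratio was -0.05. Among all genes with such counts, 46.4% were higher in replicate 2.

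The targets ran from Vegfa, the highest member by mean level, down to Adm. Vegfa (ENSMUSG00000023951.17, chromosome 17, 46016993 to 46032369), the endothelial growth factor, had 46.6 TPM from 2588 counts in replicate 2 and 21.9 TPM from 1603 counts in replicate 1. Bnip3 (ENSMUSG00000078566.8, chromosome 7, 138890836 to 138909519), a mitophagy receptor, had 15.3 TPM from 467 counts and 19.4 TPM from 806 counts. Replicate 2 was thus the higher library for Vegfa and the lower for Bnip3. Ndrg1 (ENSMUSG00000005125.13, chromosome 15, 66929318 to 66969640), a stress-responsive growth suppressor, had 9.38 TPM from 520 counts and 5.26 TPM from 386 counts. Adm (ENSMUSG00000030790.15, chromosome 7, 110627661 to 110629820), the vasodilator peptide adrenomedullin, had 1.66 TPM from 39 counts and 1.38 TPM from 27 counts. Vegfa was 28.1-fold above Adm in replicate 2 and 15.9-fold in replicate 1, both being secreted targets. Means over both libraries (SD, n = 2) were 34.2 ± 17.5 TPM for Vegfa and 17.3 ± 2.90 TPM for Bnip3. Those of Ndrg1 and Adm were 7.32 ± 2.91 and 1.52 ± 0.198 TPM. Vegfa lay above 68.2% of detected protein-coding genes, Bnip3 above 50.5%, Ndrg1 above 28.0% and Adm above 2.94%.

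Ratios between the libraries were taken on counts scaled by edgeR's TMM factors with 0.5 added, replicate 2 over replicate 1, with exact binomial intervals that cover counting error only. No test was made, since each side holds 1 library. A gene was called 2-fold apart by size alone, given at least 20 counts in each library, a filter that 9 of the 10 members met and Egln3 did not. Vegfa was 2.21-fold higher in replicate 2, a log2 ratio of 1.14 (interval 1.05 to 1.24), and was the only member past 2-fold. Among all 12471 genes that met the filter, 1.94% were at least 2-fold higher in replicate 2, and 0.521% at least 2-fold lower, where no member was found. Adm was 1.96-fold higher, with a log2 ratio of 0.97 and an interval from 0.24 to 1.75 that reflects its few counts. In TPM the log2 ratio of Adm was 0.27, which is under 1.5-fold. Ndrg1 was 1.84-fold higher, with a log2 ratio of 0.88 (interval 0.69 to 1.08). On scaled counts Vegfa, Adm and Ndrg1 were the 3 members at least 1.5-fold apart, against 9.43% of all filtered genes.

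The other members lay closer together. Hif1a had a log2 ratio of 0.29 (interval 0.22 to 0.35), Egln1 of 0.20 (0.05 to 0.34) and Bnip3 of -0.33 (-0.50 to -0.17), each with an interval clear of 0. Hif1an at -0.03 (-0.14 to 0.08), Vhl at -0.02 (-0.16 to 0.11) and Epas1 at 0.37 (-0.18 to 0.93) had intervals that held 0, the last on few counts. Of the 9 members, 6 were higher and 3 lower in replicate 2, where 46.4% of all filtered genes were higher. The median log2 ratio was 0.29 for the members, beside -0.02 over all filtered genes. Within 0.5 on the log2 scale lay 6 members and 86.9% of all filtered genes. Of the 4 targets, Bnip3 was the member lower in replicate 2, opposite to Vegfa, Adm and Ndrg1.

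**Figure D2:**
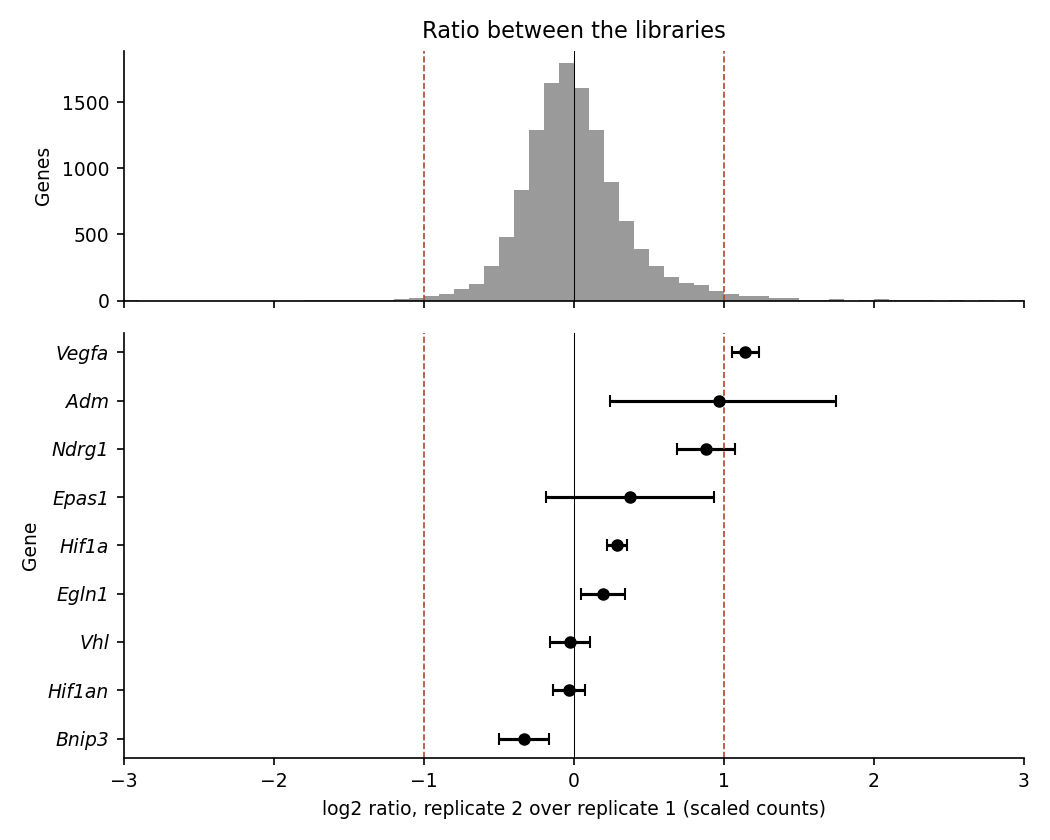
Upper panel, number of genes by log2 ratio (replicate 2 over replicate 1, scaled counts) for all genes with at least 20 counts in each library. Lower panel, the 9 members that met this filter with exact 95% counting intervals. Dashed lines mark 2-fold, which Vegfa passes at 1.14 while Adm (0.97) and Ndrg1 (0.88) stay inside and Bnip3 lies lowest at -0.33.

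Hif1a reads were assigned to transcripts from both annotated starts. Hif1a-202 starts 6529 bases upstream of Hif1a-201, at 73901375 against 73907904, and its coding sequence runs to 810 codons, against 836 in Hif1a-201. The upstream first exon is known in the mouse from testis and from activated T cells. Hif1a-202 had 19.2 TPM in replicate 2 and 13.6 TPM in replicate 1, or 52.7% and 44.1% of the gene. Hif1a-201 had 17.1 and 17.2 TPM, or 46.9% and 55.8%. The log2 ratio between libraries was 0.56 for Hif1a-202 and 0.05 for Hif1a-201. The transcript that led therefore changed with the library. The FASTQ-derived table gave Hif1a-202 a smaller share, 43.4% in replicate 2 and 34.5% in replicate 1, with Hif1a-201 leading in both, and log2 ratios of 0.58 and 0.03. The transcripts share 13 of their 15 exons, and differ in the first exon and in the stretch of 42 bases printed above. Reads over either place can move the estimate, so the share is not a measure of the first exon alone. The promoter sequence printed for Hif1a lies at the downstream start.

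Vegfa reads were assigned to transcripts with and without the heparin-binding exon. Vegfa-202, which holds it, had 23.2 TPM in replicate 2 and 10.5 TPM in replicate 1, or 49.8% and 48.0% of the gene. Vegfa-201, which lacks it, had 17.8 and 9.02 TPM, or 38.1% and 41.2%. Both were higher in replicate 2, with log2 ratios of 1.199 for Vegfa-202 and 1.03 for Vegfa-201, so the gene's difference was carried by both forms. Vegfa-202 was 1.31 times Vegfa-201 in replicate 2 and 1.16 times in replicate 1. The FASTQ-derived table gave 2.35 and 2.12 times, with Vegfa-201 at 20.1% and 24.8% of the gene. There the coding transcript Vegfa-203, annotated at 513 bases with 170 codons, took 10.1% and 5.14%, although the alignment-derived table gave it 0 and 0.365%. The share of Vegfa-201 therefore differed more between the tables than between the libraries. The starts of Vegfa-202 and Vegfa-201 lie 554 bases apart, and their annotated coding sequences are 368 and 146 codons. Reads over the longer first exon of Vegfa-202 or over the heparin-binding exon can move the estimate. The shares are thus not a measure of the heparin-binding exon alone.

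Retained-intron transcripts of Vegfa took 9.44% of the gene in replicate 2 and 9.04% in replicate 1, and 19.5% and 15.6% in the FASTQ-derived table. In the alignment-derived table the like sums came from unlike transcripts. In replicate 2 Vegfa-210 had 2.15 TPM, Vegfa-209 1.17 TPM and Vegfa-208 1.08 TPM. In replicate 1 Vegfa-206 had 0.68 TPM, Vegfa-205 0.67 TPM and Vegfa-209 0.63 TPM. Each of these values rested on 26 counts or fewer. The FASTQ-derived table instead assigned reads to Vegfa-205, Vegfa-208, Vegfa-209 and Vegfa-210 in both libraries, and to Vegfa-206 in replicate 1 alone. Which retained intron was present is thus not settled at this depth.

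**Figure D3:**
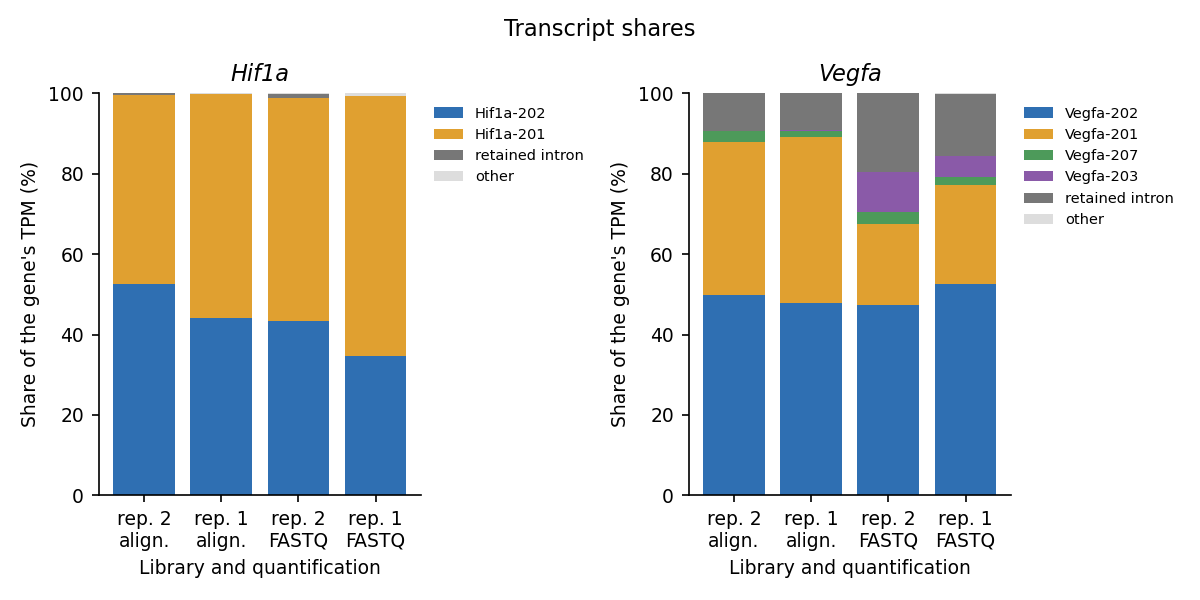
Share of the TPM of Hif1a and of Vegfa by annotated transcript, as stacked bars for replicate 2 and replicate 1 in the alignment-derived and in the FASTQ-derived table. Hif1a-202 makes up 52.7% and 44.1% of Hif1a in the alignment-derived table but 43.4% and 34.5% in the FASTQ-derived one, and Vegfa-202 lies between 47.4% and 52.5% of Vegfa in all 4 bars.

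**Figure D4:**
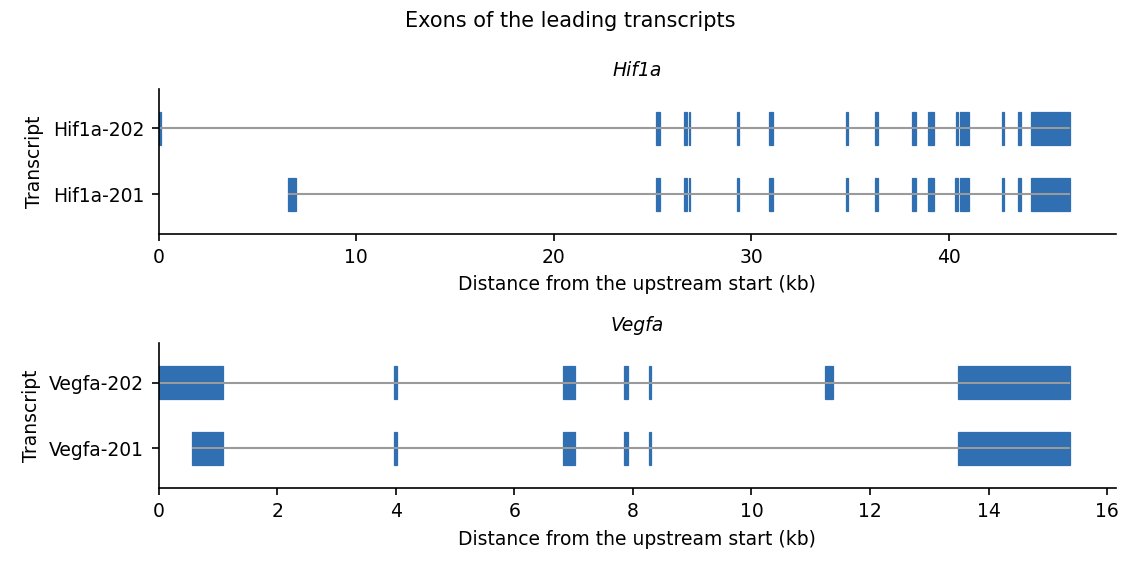
Annotated exons (boxes) and introns (lines) of the leading transcripts, in kb from the upstream start in the direction of transcription. Hif1a-202 has its own first exon 6529 bases upstream, and Vegfa-202 has an extra exon of 132 bases before the last one.

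The remaining members were close to a single transcript each. For Epas1, Hif1an, Egln1, Egln3 and Vhl a single coding transcript took the whole of the gene in the alignment-derived table. The leading Ndrg1 transcript took 99.6% in replicate 2 and 100% in replicate 1, and that of Bnip3 97.4% and 100%. Adm was the exception: Adm-201, the coding form, had 1.66 TPM in replicate 2 and 0.80 TPM in replicate 1, where the short retained-intron form Adm-202 added 0.58 TPM from 2 counts. These 2 counts made up 42.0% of the TPM of Adm in replicate 1. The coding form alone differed by more in TPM between libraries than the gene did. Among the 4 members that have more than 1 annotated transcript and at least 10 TPM in each library, the largest move of any transcript share between libraries was 8.84 percentage points in Hif1a, 4.62 in Vegfa, 2.62 in Bnip3 and 0 in Vhl. A move of at least 5 points, a limit set after these values were seen, was met by 1 of the 4 and by 40.2% of 6281 protein-coding genes compared the same way, whose median was 3.88 points.

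The deposited quantifications of the same reads gave similar gene levels. After centring on all 10820 compared genes, 0 of the 8 detected members differed 2-fold between the alignment-derived and FASTQ-derived mean TPM, beside 0.767% of those genes. The median absolute difference on the log2 scale was 0.04 for the members and 0.07 for all. The widest of these 8 members was Vegfa, at -0.21, that is, relatively lower in the alignment-derived table. Epas1, which was not detected and so not among the 8, differed by -0.40 on the same centred scale. Bnip3 shared 57.0% of its 31-base words with other annotated genes, most of them with the lincRNA AC160336.1 on chromosome 14. That lincRNA had 19 and 32 counts in the alignment-derived table and 10983 and 7862 in the FASTQ-derived one. Bnip3 itself had 467 and 806 counts in the alignment-derived table and 482 and 837 in the FASTQ-derived one. Per length the order was the reverse in the FASTQ-derived table, with the lincRNA at 4.45 and 2.55 TPM and Bnip3 at 12.0 and 16.6 TPM. The centred difference of Bnip3 was 0.10 on the log2 scale. How each table assigned reads from the shared words is not known, so the level of Bnip3 is given as uncertain. The other members shared at most 7.32% of their words, in Ndrg1. Annotated genes that overlap a member, 8 genes at 5 members, held at most 1 count each.

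Ndrg1 carried a further limit. Its point estimates of 9.38 TPM in replicate 2 and 5.26 TPM in replicate 1 fell below the interval bounds that the authors deposited beside them, 10.1 to 15.2 TPM and 5.69 to 9.06 TPM. The sources used here do not give the level of that interval. Ndrg1 was the only member outside its bounds in either library, and 16.1% of detected protein-coding genes were outside theirs in replicate 2 and 15.3% in replicate 1. For Vegfa the bounds were 43.8 to 49.3 TPM in replicate 2 and 20.7 to 23.99 TPM in replicate 1, which do not overlap.

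Wider target lists were mixed in direction. Among 30 hypoxia targets in survival, vessels and signalling, 4 of them members, 24 were detected, with Hmox1, heme oxygenase, highest at 370 and 538 TPM in replicates 2 and 1. Epo, erythropoietin, was lowest with 0 counts in both. Of 26 genes that met the filter, 18 were higher and 8 lower in replicate 2, and the median log2 ratio was 0.18. For this and the lists below, 46.4% of all filtered genes were higher in replicate 2, and 1.94% at least 2-fold higher. Besides Vegfa, 2 genes passed 2-fold, both higher in replicate 2. The vasoconstrictor peptide Edn1 had 2.88 TPM in replicate 2 and 1.18 TPM in replicate 1, with a log2 ratio of 1.32 (interval 0.87 to 1.80). The transcriptional repressor Bhlhe40 had 6.27 and 3.08 TPM, with a log2 ratio of 1.08 (interval 0.84 to 1.32). All 20 glycolytic targets were detected, at a median of 42.7 TPM in replicate 2 and 51.8 TPM in replicate 1, led by Gapdh at 1738 and 2018 TPM. They divided into 9 higher and 11 lower, with a median log2 ratio of -0.07. Aldoc, a brain-type aldolase and the lowest of them by mean level, at 3.71 and 1.15 TPM, was the only glycolytic gene past 2-fold, with a log2 ratio of 1.92 (interval 1.47 to 2.42).

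Coactivators and modifiers of HIF were detected in 9 of 10 cases, from the chaperone Hsp90ab1 at 691 TPM in replicate 2 and 823 TPM in replicate 1 to Cited4 with 0 counts in both. Of 9 that met the filter, 3 were higher and 6 lower in replicate 2, with none past 2-fold and a median log2 ratio of -0.11. Mitophagy receptors were all detected, 6 of 6, and Bnip3 was the lowest of them. Fkbp8 was highest at 131 and 186 TPM, and Bnip3l, the close relative of Bnip3, stood 3.04-fold above it in replicate 2 and 2.99-fold in replicate 1. In that list 1 gene was higher and 5 lower in replicate 2, none past 2-fold, with a median of -0.15. In the Ndrg family 3 of 4 genes were detected. Ndrg3 was highest at 18.3 and 22.4 TPM and lower in replicate 2, whereas Ndrg1 was higher there. Ndrg2 was lowest at 0.36 and 0.25 TPM, and the median log2 ratio of the 3 genes that met the filter, 2 higher and 1 lower, was 0.12.

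Among VEGF family ligands, 3 of 5 were detected and Vegfa led. Vegfb had 17.3 TPM in replicate 2 and 20.5 TPM in replicate 1, so Vegfa exceeded it 2.69-fold in replicate 2 and 1.07-fold in replicate 1. Vegfc, a lymphatic growth factor, was lowest at 0.33 and 0.26 TPM. Of the 3 ligands that met the filter 2 were higher in replicate 2, Vegfa alone past 2-fold, and the median log2 ratio was 0.33. Receptors for VEGF and adrenomedullin were detected in 4 of 9 cases, and the coreceptor Nrp2 led at 180 and 190 TPM, with Ramp2 lowest by mean level at 0.11 and 0.23 TPM, from 2 and 5 counts. Kdr, the main signalling receptor of Vegfa, had 20.8 TPM from 2508 counts in replicate 2 and 5.57 TPM from 879 counts in replicate 1, a log2 ratio of 1.97 (interval 1.85 to 2.08). Flt4, the receptor of Vegfc, had 1.38 and 0.41 TPM, a log2 ratio of 1.80. Of the 6 receptors that met the filter 3 were higher, these 2 past 2-fold, and the median log2 ratio was 0.31.

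Endothelial markers were mixed in direction. Of 6 listed, 3 were detected, and all 6 summed to 33.8 TPM in replicate 2 and 14.7 TPM in replicate 1. Kdr, which is itself on that list, supplied 20.8 and 5.57 TPM of these sums. Vwf, at 9.00 and 2.88 TPM, and Kdr were past 2-fold higher in replicate 2. Cdh5, the defining cadherin of endothelium, had 0.52 and 1.5 TPM and was lower in replicate 2, as was Pecam1, which leukocytes also express, at 3.28 and 4.61 TPM. Tek had 0.08 and 0.07 TPM and Emcn 0.13 and 0.07 TPM. The list's median log2 ratio over 4 genes, 2 higher and 2 lower, was 0.48. Macrophage markers had a median of -0.25, with 2 of 8 higher, and Cd14, the Tlr4 coreceptor, was the only one past 2-fold at 428 TPM in replicate 2 and 202.5 TPM in replicate 1. Stromal markers had a median of 0.27, beside 0.29 for the 9 members. Of the neutrophil markers S100a9 alone met the filter, and it was past 2-fold lower in replicate 2, with a log2 ratio of -2.94 (interval -3.60 to -2.38). Whether any of these cells or states had a part in the difference of Vegfa was not tested.

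**Figure D5:**
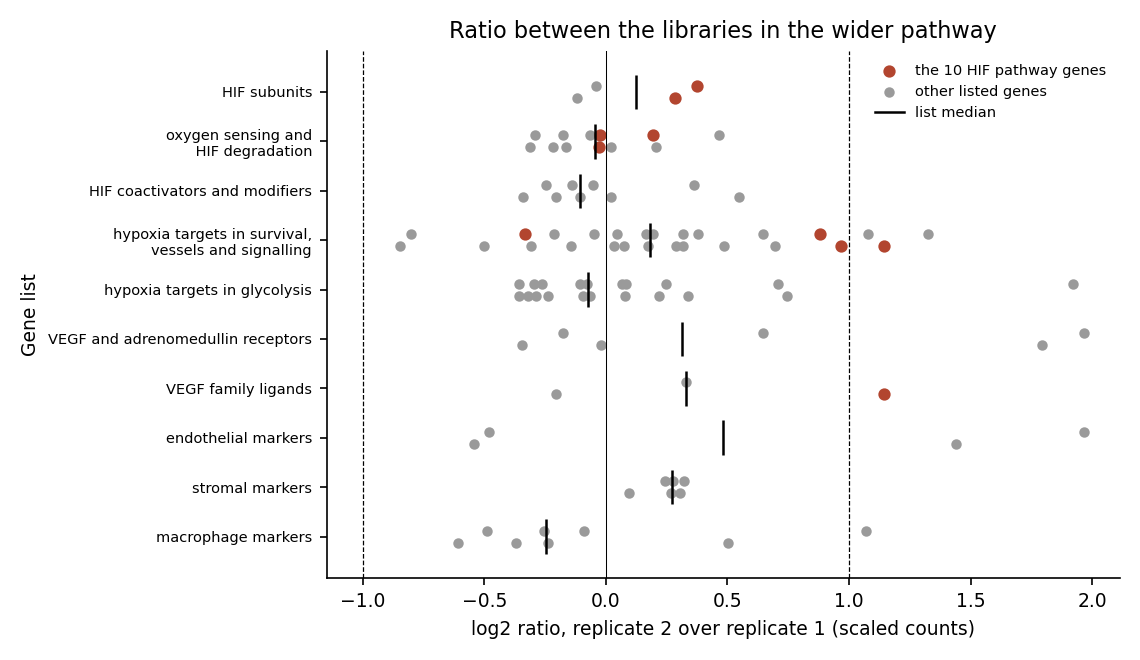
Log2 ratio (replicate 2 over replicate 1, scaled counts) of each gene with at least 20 counts in each library, by list, with members in red, other genes in grey and the list median as a vertical bar. Dashed lines mark 2-fold, which is passed on the high side by Vegfa, Edn1, Bhlhe40, Aldoc, Kdr, Flt4, Vwf and Cd14. In the lists drawn no gene passes it on the low side. S100a9, of the neutrophil list that is not drawn, lies past it there at -2.94.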

How the data were processed

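Polyadenylated RNA was sequenced in 2 libraries of 1 group, grouped by the labels. Per the submitters' processing notes the genome was mm10 with GENCODE M21. The sources used here do not give the aligner, the quantifier, their versions or the use of strand. For each library the authors deposited 3 tables. Per the file headers, the gene and transcript tables derived from alignments hold expected counts and TPM with interval bounds. A further table, made from FASTQ files, gives per transcript an estimated count and TPM, per the file headers, and was summed here per gene.

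Expected counts were rounded to whole numbers. The 97 spike-in entries, 0.0667% of counts in replicate 2 and 0.0526% in replicate 1, and 26248 numerically named entries with 0 counts stayed out of library sizes. TMM factors came from edgeR 4.0.16 in R 4.3.3, and DESeq2 1.42.0 size factors were an alternative. Ratios had 0.5 added and Clopper-Pearson intervals at 95% that cover counting error only. The ratio step was tested on simulated Poisson counts, with known changes planted in genes averaging at least 100 counts. Spread beyond counting error was not simulated, nor were changes in genes with fewer counts, such as Adm and Epas1. Shared words were 31 bases of GENCODE transcripts. Other steps ran in Python 3.11.15 with scipy 1.17.1, pandas 2.3.3, matplotlib 3.10.9 and numpy 2.4.6.

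The rule for members names symbols and uses no measured value, but the members and lists were chosen with earlier results of these data known. Named genes were all members, the highest and lowest gene of each list, those past 2-fold, and every HIF subunit and oxygen-sensing gene. Of cell type lists the highest gene and those at 0 were named. Other genes, such as Bnip3l, Vegfb, Pecam1, Cdh5, Tek and Emcn, were added after their values were seen. Alternatives changed the scaling, added count, filter, fold, detection limit, quantification and motif, and left out each replicate. Protein features were not analysed here.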

Additional observations from a re-analysis of the deposited data

How the results depend on the processing

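The median member level was 9.87 TPM by alignment-derived values and 8.66 TPM by FASTQ-derived ones. At 1.5-fold 3 members were apart, against 9.43% of all filtered genes, where 1 member was at 2-fold. Leaving out a replicate gave a median level of 9.79 to 9.95 TPM, 8 members detected and 0 members apart between quantifications. A detection limit of 5 TPM left 7 members, with no share of all protein-coding genes at that limit to set beside it. Vegfa was the only member past 2-fold with DESeq2 size factors, total counts, TPM, FASTQ-derived counts, a minimum of 100 counts or no filter, while the count over all genes was 307 and ran from 136 at the minimum of 100 to 5574 with no filter. The median log2 ratio of members ran from 0.23 to 0.29, and no member's ratio changed direction or side of 2-fold under another scaling, added count or table. In the FASTQ-derived table the uncentred level of 7 of 10 members moved by more than the SD over the 2 libraries. The leading transcript share of 2 members did so too. Over all compared genes the alignment-derived level was higher by a median of 0.177 on the log2 scale. With that offset removed, the median absolute difference of the 8 detected members was 0.04. The cause of the offset and of the remaining moves was not tested. No paired analysis was possible because there is 1 group. In TPM the log2 ratio of Adm was 0.27, beside 0.97 on scaled counts, which takes it under 1.5-fold. The replicate 1 TPM of Adm includes 0.58 TPM from 2 counts of Adm-202. Adm-201 alone had 1.66 TPM in replicate 2 and 0.80 TPM in replicate 1. The counts of Adm and Egln3 limit what can be read from them.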
